A study of Mus musculus with 4 samples.

Results

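Metallothioneins and zinc transporters were followed in liver and spleen of mice injected with lipopolysaccharide (LPS), the outer membrane glycolipid of Gram-negative bacteria, which triggers an acute inflammatory response. The set comprised 9 genes, Mt1, Mt2, Mt3, Mtf1, Slc39a14, Slc39a4, Slc39a8, Slc30a1 and Slc30a7. Every array probe that carried 1 of these names, or whose RefSeq accession now has it, was taken, which gave 17 of 41174 probes and 9 of 27670 genes. A further 3 probes that reach Slc30a7 only through an older synonym were not used in any call, and their organ differences are given with that gene. Each gene was represented by its brightest probe, and the other probes of a gene are given where they differ.

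The mice were male C57BL/6J, aged 7 weeks. One group ate a purified diet to which 1.2% of a nucleoprotein product had been added, with 0.5% nucleic acids in all, and the control group ate the purified diet alone, with 0.03% nucleic acids. Both groups received LPS at 10 mg/kg after 4 weeks of feeding, and liver and spleen were taken 6 h later, so no comparison with uninjected mice was made. RNA was pooled by diet and hybridised to 4 two-colour arrays, 2 per organ, with the nucleoprotein pool in Cy5 (red) on array 1 and in Cy3 (green) on array 2. The number of mice per pool is not given in the sources used here, and the labels do not settle whether arrays 1 and 2 of an organ carried the same pools. A single pool per diet and organ was assumed, so no SD below covers the spread between mice. The SD of a diet ratio covers the 2 arrays, with their opposite dyes. That of an organ difference covers 4 matched differences. These come from 2 liver and 2 spleen arrays, so the differences of both diets at an array number share arrays and are not independent. Liver and spleen were never on the same array, so organ and array cannot be told apart. The SD of replicate spots covers the spots of 1 array. A standard chow appears in the notes on housing, but the diets given here are those of the study design.

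Metallothioneins are small cysteine-rich proteins that bind zinc and copper. Their genes are switched on by zinc through the factor MTF-1, and in liver also by glucocorticoids and by inflammatory signals such as interleukin-6. Transporters of the ZIP family (Slc39a genes) bring zinc into the cytosol, and those of the ZnT family (Slc30a genes) carry it out of the cytosol. During the acute phase response the liver takes up zinc from plasma, and ZIP14, encoded by Slc39a14, is known for its part in that uptake.

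The Mt1 probe with the brightest signal is shown because its 2 dye orientations gave opposite diet ratios. It lies within coding sequence at chr8:92769155-92769214 on the plus strand (mm7, per the file headers), is 60 bases long, and 6 of its 19 complete codons encode cysteine, written in capitals.
Mt1 probe: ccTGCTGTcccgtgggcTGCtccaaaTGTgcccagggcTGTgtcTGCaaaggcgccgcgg

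Promoter windows from RefSeq (GRCm38.p6), 250 bases before to 50 bases after the annotated start, were matched to 7 of the 9 genes. They are shown for Mt1, Mt2 and Slc30a1, the members best known as targets of MTF-1, with each match to the core of the metal response element in capitals. The core was searched as TGCACNC and TGCGCNC on both strands, and a match is a match of letters only. The windows lie at chr8:94178839-94179138, chr8:94172368-94172667 and chr1:191906531-191906830, all on the plus strand.
Mt1: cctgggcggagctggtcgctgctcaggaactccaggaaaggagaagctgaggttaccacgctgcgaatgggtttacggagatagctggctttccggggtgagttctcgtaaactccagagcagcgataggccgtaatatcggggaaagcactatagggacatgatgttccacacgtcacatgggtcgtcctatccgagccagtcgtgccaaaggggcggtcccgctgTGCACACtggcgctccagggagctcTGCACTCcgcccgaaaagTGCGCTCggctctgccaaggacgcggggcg
Mt2: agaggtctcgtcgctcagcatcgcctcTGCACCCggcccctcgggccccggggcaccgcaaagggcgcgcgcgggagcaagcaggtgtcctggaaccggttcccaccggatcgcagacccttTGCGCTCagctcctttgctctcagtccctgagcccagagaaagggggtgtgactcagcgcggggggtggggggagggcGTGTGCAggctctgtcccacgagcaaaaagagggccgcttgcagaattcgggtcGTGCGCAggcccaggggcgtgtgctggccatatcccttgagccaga
Slc30a1: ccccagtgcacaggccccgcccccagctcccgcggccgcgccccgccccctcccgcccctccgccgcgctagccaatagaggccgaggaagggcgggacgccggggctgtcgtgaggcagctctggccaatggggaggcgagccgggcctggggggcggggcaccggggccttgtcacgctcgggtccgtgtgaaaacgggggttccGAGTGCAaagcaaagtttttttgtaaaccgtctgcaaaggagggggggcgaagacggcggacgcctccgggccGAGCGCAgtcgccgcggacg

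The Mt1 window held 3 matches, of which the first began 23 bases upstream of the start and the others 2 and 20 bases after it. In the Mt2 window there were 4 matches, beginning 223, 128 and 50 bases upstream and 4 bases downstream. Slc30a1 had 2 matches, 43 bases upstream and 30 bases downstream. At least 3 matches were found in 1.97% of 32851 mouse promoter windows of the same length, at least 4 in 0.517%, at least 2 in 7.11% and at least 1 in 25.7%. Mt3, the metallothionein known mainly from brain, had 1 match, and Slc39a8 had 1 match at the second of its annotated starts. The windows of Mtf1 and Slc30a7 held none of these letters.

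**Figure D1:**
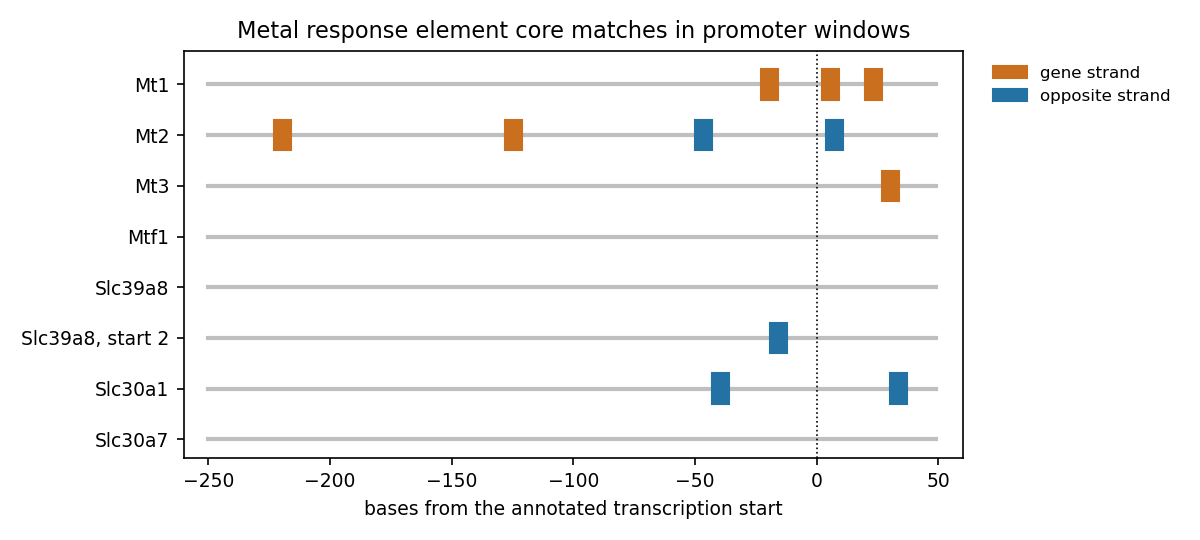
Matches to the metal response element core (boxes, 7 bases long) by distance in bases from the annotated transcription start, for each RefSeq promoter window of a member. Orange boxes lie on the strand of the gene and blue boxes on the opposite strand. Mt1 has 3 matches and Mt2 has 4, and Mtf1 and Slc30a7 have none.

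Levels below are log2 intensities after background correction and normalization, and are compared for 1 probe at a time, since probes differ in how strongly they bind. Of the 17 probes, 13 were well above background in both diets on both arrays of each organ, as were the representing probes of all 9 genes. Known markers matched the labelled organs, as 19 of 19 measurable hepatocyte markers were brighter in liver and 9 of 9 measurable B cell markers were brighter in spleen. As these are whole organs, fewer cells of a type and less RNA per cell cannot be told apart.

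The clearest pattern among the members was the difference between organs. A gene was called brighter in an organ where all 4 differences between liver and spleen channels of the same diet, dye and array number passed 2-fold in 1 direction. By this rule 5 of the 9 members were brighter in liver and 0 in spleen, against 12.5% and 16.2% of the 18975 genes measured (28.7% in either direction). The 5 were Slc39a14, Slc39a4, Mt1, Slc30a1 and Slc39a8. The median liver minus spleen difference was 1.31 over the 9 members and -0.09 over all genes. For some genes below, the channels of the organs are also said not to overlap. The share of all genes so separated was not counted, so this only describes the channels. The 28.7% called by the 2-fold rule is no base rate for it, as non-overlap asks for no size of difference.

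**Figure D2:**
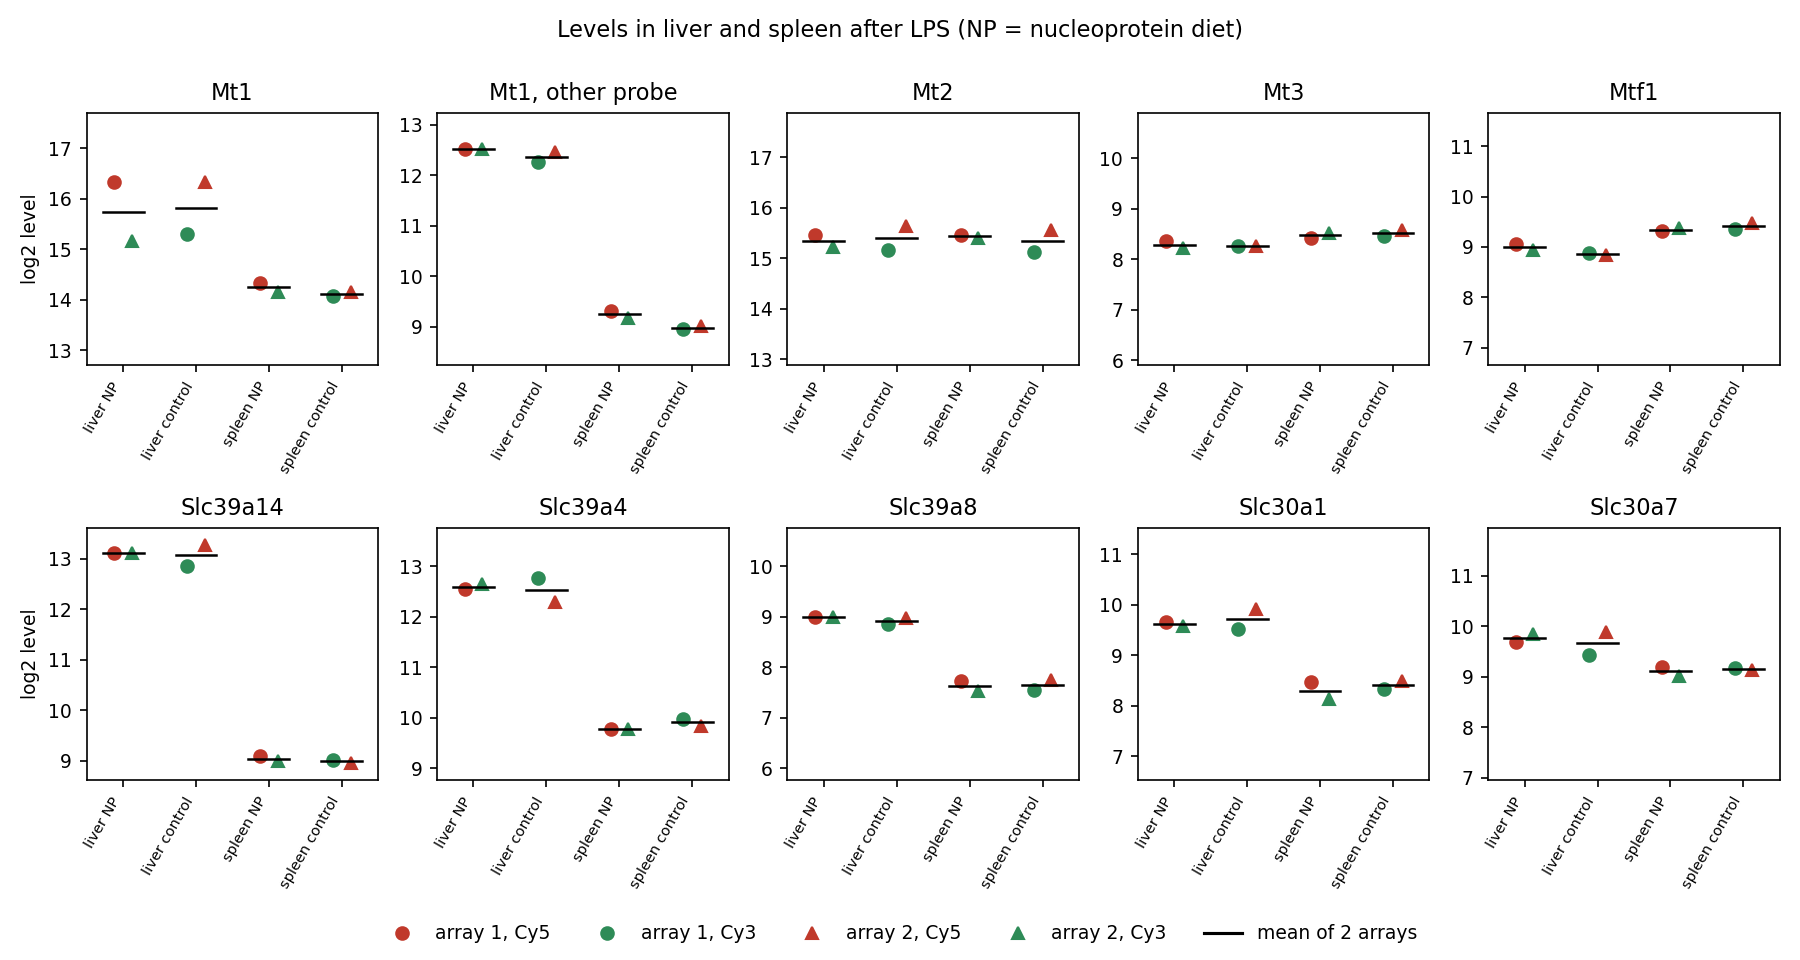
Log2 level of the representing probe of each member, and of the other Mt1 probe, in each channel. Within each panel nucleoprotein stands left of control and liver left of spleen, circles are array 1, triangles array 2, red is Cy5, green is Cy3, and bars are means of 2 arrays. Each panel spans 5 log2 units. Slc39a14, Slc39a4, Slc39a8, Slc30a1, Slc30a7 and both Mt1 probes stand higher in every liver channel than in any spleen channel.

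Slc39a14 had the largest organ difference of the members. Its level was 13.12 and 13.11 in nucleoprotein livers and 12.86 and 13.28 in control livers, against 9.10 and 8.99 in nucleoprotein spleens and 9.02 and 8.96 in control spleens (arrays 1 and 2). All 4 liver channels lay far above all 4 spleen channels. Liver exceeded spleen by 4.08 ± 0.20 on the log2 scale (SD of the 4 differences), or 16.9-fold. The second probe of the gene gave 3.89 ± 0.15, or 14.8-fold.

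Slc39a4 encodes ZIP4, best known as the zinc importer of the intestinal epithelium. It measured 12.55 and 12.64 in nucleoprotein livers and 12.76 and 12.29 in control livers, against 9.78 and 9.77 in nucleoprotein spleens and 9.97 and 9.84 in control spleens. The organs did not overlap, and the difference was 2.72 ± 0.19, or 6.59-fold. Only 1 probe of this gene was on the array.

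Slc39a8 encodes ZIP8, an importer of zinc, manganese and iron that is also known from immune cells. Levels were 8.99 and 9.0 in nucleoprotein livers and 8.86 and 8.97 in control livers, against 7.73 and 7.54 in nucleoprotein spleens and 7.56 and 7.76 in control spleens. The liver channels were again all above the spleen channels, by 1.31 ± 0.11 or 2.48-fold. The other probes gave smaller differences of 0.47 ± 0.08 and 0.18 ± 0.07, short of the bound. Both were dim, with mean levels of 6.75 and 6.33 in liver and 6.29 and 6.15 in spleen. The former was well above background on only 1 array for control spleens. The latter was so on only 1 liver array per diet and not in spleen, so these differences rest on values near background.

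Among the exporters, Slc30a1 encodes ZnT1, which moves zinc across the plasma membrane. It measured 9.65 and 9.58 in nucleoprotein livers and 9.52 and 9.92 in control livers, against 8.46 and 8.13 in nucleoprotein spleens and 8.32 and 8.48 in control spleens. The groups of channels did not overlap, and liver was higher by 1.32 ± 0.14, or 2.49-fold. A second probe 3' of it gave 0.50 ± 0.10, which did not pass 2-fold.

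Slc30a7 encodes ZnT7, which loads zinc into the Golgi. Its level was 9.69 and 9.85 in nucleoprotein livers and 9.43 and 9.88 in control livers, against 9.19 and 9.02 in nucleoprotein spleens and 9.16 and 9.12 in control spleens. Every liver channel was higher, but by less than the bound, with a difference of 0.59 ± 0.26 (1.51-fold). Its second probe was not well above background in any channel. The 3 probes that reach the gene only through an older synonym gave 1.00 ± 0.16, 1.08 ± 0.22 and -0.03 ± 0.09. The last of them lies on the opposite strand. None passed 2-fold in all 4 differences.

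Mt1 was measured by 2 probes that lie 107 bases apart. The brightest read 16.33 and 15.16 in nucleoprotein livers and 15.31 and 16.34 in control livers, against 14.33 and 14.16 in nucleoprotein spleens and 14.07 and 14.16 in control spleens. Liver was higher by 1.60 ± 0.57 (3.04-fold), and the differences of 1.99, 1.25, 1.00 and 2.17 reached the bound only narrowly in 1 case. The processed signal of the scanner software, scaled to the 75th percentile of each channel, gave 2.61. With a background offset of 10 in place of 50, Mt1 no longer passed 2-fold in all 4 differences.

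The other Mt1 probe separated the organs further. It read 12.51 and 12.52 in nucleoprotein livers and 12.26 and 12.46 in control livers, against 9.31 and 9.17 in nucleoprotein spleens and 8.95 and 9.01 in control spleens. The difference was 3.33 ± 0.10, or 10.0-fold, so the size of the Mt1 difference depended on the probe while its direction did not.

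Mt2, which lies beside Mt1 and is induced by the same signals, did not separate the organs under the main scaling. It measured 15.47 and 15.22 in nucleoprotein livers and 15.16 and 15.64 in control livers, against 15.47 and 15.41 in nucleoprotein spleens and 15.13 and 15.56 in control spleens. These ranges overlapped, and liver minus spleen was -0.02 ± 0.12. This value depended on scaling, since the scanner software's processed signal, scaled as for Mt1, gave 1.05. The probe stood at percentile 99.76 to 99.91 of every channel. Scaling levels between arrays gives probes of the highest ranks similar values on each array. The value near 0 therefore cannot tell equal Mt2 levels from a difference lost in scaling, and sets no firm contrast with Mt1.

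Mt3 and Mtf1, which encodes MTF-1, read slightly lower in liver than in spleen, without passing the bound. Mt3 measured 8.36 and 8.22 in nucleoprotein livers and 8.27 and 8.27 in control livers, against 8.43 and 8.53 in nucleoprotein spleens and 8.46 and 8.59 in control spleens, a difference of -0.22 ± 0.12. Mtf1 measured 9.05 and 8.95 in nucleoprotein livers and 8.88 and 8.84 in control livers, against 9.31 and 9.38 in nucleoprotein spleens and 9.35 and 9.48 in control spleens. Its organs did not overlap, yet the difference of -0.45 ± 0.15 was under the bound, and a second Mtf1 probe gave -0.04 ± 0.11.

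The other zinc transporters and Mt4 did not show the same one-sided pattern. Of 20 such genes 16 could be measured, and their median difference was 0.28. Of the 16, 3 were brighter in liver and 2 in spleen, near the 12.5% and 16.2% of all genes. The 5 are named here after their values were seen. Brighter in liver were Slc39a11 (ZIP11) by 1.29 ± 0.10, Slc30a5 (ZnT5, of the secretory pathway) by 1.24 ± 0.13, and Slc30a10, a manganese exporter, which was not well above background in spleen and was at least 15.6-fold higher in liver. Slc39a6 (ZIP6) was 5.09-fold higher in spleen, with a difference of -2.35 ± 0.19, and Slc30a2 (ZnT2), not well above background in liver, was at least 2.94-fold higher in spleen. The importer Slc39a7 (ZIP7), which releases zinc from the endoplasmic reticulum, differed by 0.13 ± 0.09. A bound for a dim gene sets the bright organ's mean level against the higher of the dim probe's own level and the lowest level well above background.

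**Figure D3:**
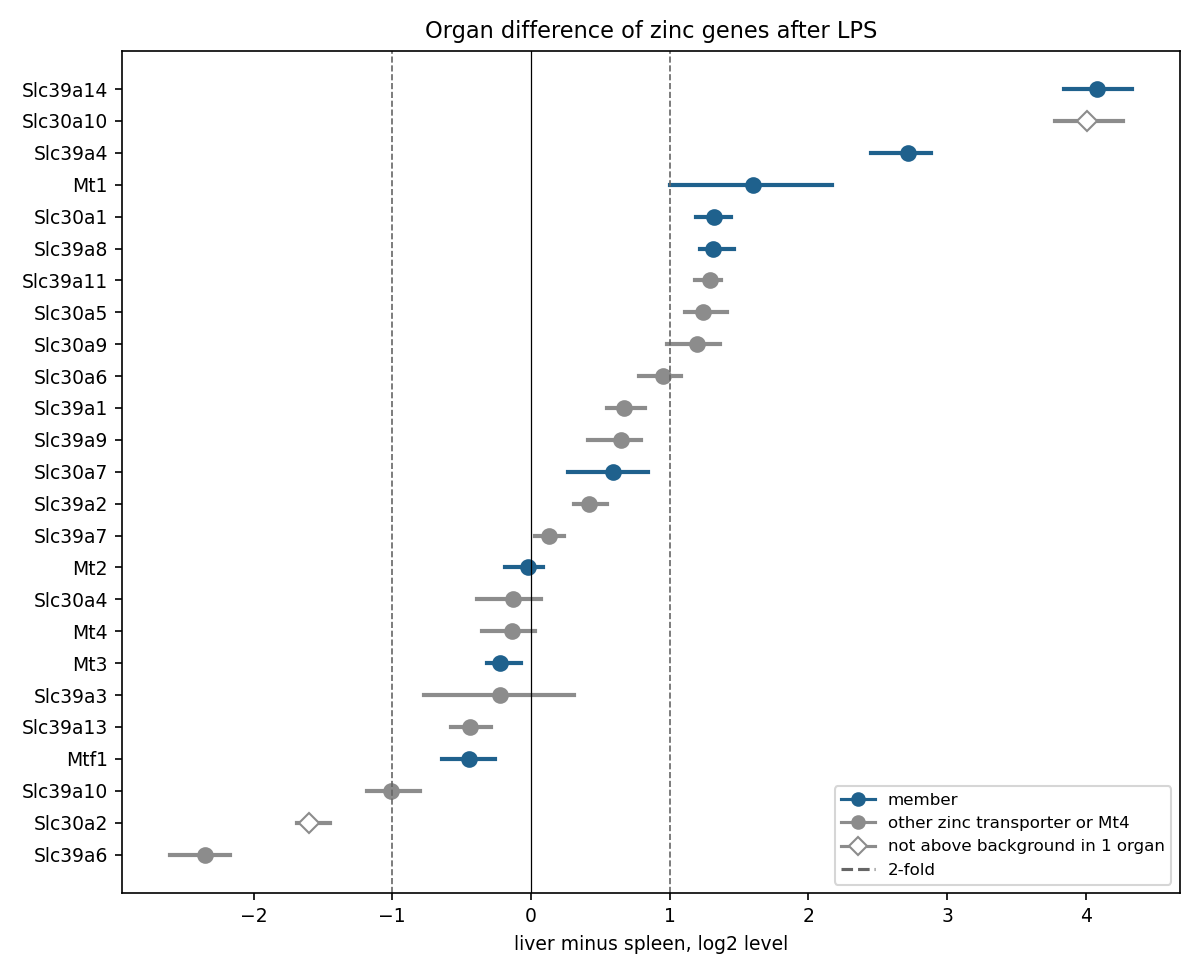
Liver minus spleen difference in log2 level for the 9 members (blue) and 16 other zinc genes (grey). Points are means of 4 matched differences, lines run from the lowest to the highest, open diamonds mark genes not well above background in 1 organ, and dashed lines mark 2-fold. Of the members, 5 lie beyond the bound on the liver side and 0 on the spleen side.

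Among 14 measurable genes of signals known to induce metallothioneins and ZIP14, 3 were brighter in liver and 3 in spleen, against 28.7% of all genes in either direction, and the median difference was 0.08. Of these, Il1r1 and Il6 are named after their values were seen. Il1r1, the interleukin-1 receptor, was 10.1-fold higher in liver, with a difference of 3.34 ± 0.06, and Il6 itself was 5.51-fold higher in spleen (-2.46 ± 0.09). Socs3, a feedback inhibitor that STAT3 induces, differed by 0.09 ± 0.15, and Stat3 by -0.03 ± 0.23. Their part in the differences of the members was not tested.

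Of 6 other genes described as MTF-1 targets, 1 was brighter in liver and 3 in spleen, against 12.5% and 16.2% of all genes. Their median difference was -1.38, and 6 genes are too few to set against those shares. Hmox1, which encodes heme oxygenase, had a difference of -1.63 ± 0.25, and Csrp1, a LIM domain protein, -3.04 ± 0.13. Gclc, which encodes the catalytic subunit for glutathione synthesis, differed by 0.80 ± 0.22 and was not called.

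The diet comparison asked whether the nucleoprotein diet changed these genes in LPS-injected mice. A gene was called where the log2 ratio of nucleoprotein over control passed 1.5-fold (0.58) in the same direction on both arrays. None of the members met this in either organ: 0 of 9 in liver and 0 of 9 in spleen. Over all genes the call was made for 0.323% of 16406 in liver (0.0122% higher and 0.311% lower) and for 0.446% of 18150 in spleen (0.215% higher and 0.231% lower). A count of 0 among 9 is near that background. Taken as separate pools and fitted with limma across all genes, 0 members passed an adjusted p of 0.05 in either organ. An unadjusted p of 0.05 was passed by 0 as well, and the lowest adjusted p of a member was 1. Over all genes, 22 of 16406 in liver and 100 of 18150 in spleen passed the adjusted bound. The unadjusted bound was passed by 182 and 553, so 0 among 9 is near these shares too.

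In liver the mean ratios of the members ran between -0.11 and 0.14, or 0.927-fold and 1.10-fold, with a median of 0.04. When arrays were centred on their median instead of by loess, the median of all liver genes was 0.17 against 0.02, and the members ran between 0.11 and 0.45. The arrays gave opposite signs for 7 of the 9, and in 8 of 9 the ratio was higher where the nucleoprotein pool carried Cy5. Over all measurable genes the ratios of the 2 arrays were also inversely related, with a Spearman rank correlation of -0.48 in liver and -0.25 in spleen. Opposite signs were thus not particular to the members. In spleen the means lay between -0.13 and 0.13 with a median of -0.04. There 5 of 9 had opposite signs, 1 was above 0 on both arrays and 3 were below 0 on both. For comparison, the 5th to 95th percentile of the mean ratio over all genes spanned -0.15 to 0.16 in liver and -0.15 to 0.13 in spleen.

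In liver the brightest Mt1 probe gave 1.01 on array 1 and -1.18 on array 2, each past 1.5-fold but in opposite directions, for a mean of -0.08 ± 1.55. The Cy5 pool was the higher each time. The uncorrected intensity was 174402 in the nucleoprotein pool and 16270 in the control pool on array 1, against 19305 and 185878 on array 2. Uncorrected Cy5 was also the brighter for every other member on both liver arrays. On array 1, Mt2 read 98865 in Cy5 against 15664 in Cy3, and Mt3 361 against 134.

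Replicate spots of that probe agreed within each array. The ratio lay between 0.92 and 1.14 over 8 spots on array 1, with an SD of 0.07. The spots left out as outliers on that array gave 1.18 and 1.33, above this range. On array 2 the ratio lay between -1.32 and -1.05 over 10 spots, with an SD of 0.08. The spread of spots was thus far smaller than the difference between orientations, and the Cy5 over Cy3 excess after normalization was 2.14-fold. In liver 74 genes of 16406 (0.451%) passed the bound in opposite directions in this way, all of them with Cy5 higher, and in spleen 4 genes (0.0220%) did.

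The same Mt1 probe in spleen gave 0.27 and -0.01, a mean of 0.13 ± 0.19. The other Mt1 probe gave 0.25 and 0.06 in liver (0.16 ± 0.14) and 0.35 and 0.16 in spleen (0.25 ± 0.14). These 4 ratios were above 0 and none passed 1.5-fold.

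Mt2 had diet ratios of 0.31 and -0.42 in liver, a mean of -0.06 ± 0.52, and of 0.33 and -0.15 in spleen, a mean of 0.09 ± 0.34. As for Mt1, the sign followed the dye in both organs. Mt3 had mean ratios of 0.01 ± 0.09 in liver and -0.04 ± 0.02 in spleen.

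Mtf1 had ratios on opposite sides of 0 in the organs. They were 0.17 and 0.11 in liver, a mean of 0.14 ± 0.04, and -0.04 and -0.10 in spleen, a mean of -0.07 ± 0.04. Neither passed the bound. A second Mtf1 probe was above 0 in spleen on both arrays, at 0.10 ± 0.00, and gave 0.11 ± 0.25 in liver, so the difference between organs was not shared by both probes.

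Slc39a14 gave 0.26 and -0.17 in liver, a mean of 0.04 ± 0.31, and 0.08 and 0.04 in spleen. Its other probe gave -0.17 and -0.13 in liver, below 0 on both arrays, and 0.08 ± 0.13 in spleen. Slc39a4 was the 1 member whose liver ratio was higher with nucleoprotein in Cy3, at -0.20 and 0.35 (0.08 ± 0.40), and it was below 0 on both spleen arrays, at -0.20 and -0.07. Slc39a8 gave 0.13 and 0.03 in liver and 0.17 and -0.22 in spleen.

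Neither exporter passed the bound. Slc30a1 had ratios of 0.13 and -0.35 in liver and 0.14 and -0.35 in spleen, a mean of -0.11 ± 0.34 in both. Its second probe gave -0.02 ± 0.01 in liver and -0.14 ± 0.10 in spleen. Slc30a7 gave 0.26 and -0.03 in liver (0.12 ± 0.21) and 0.03 and -0.10 in spleen (-0.04 ± 0.10).

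**Figure D4:**
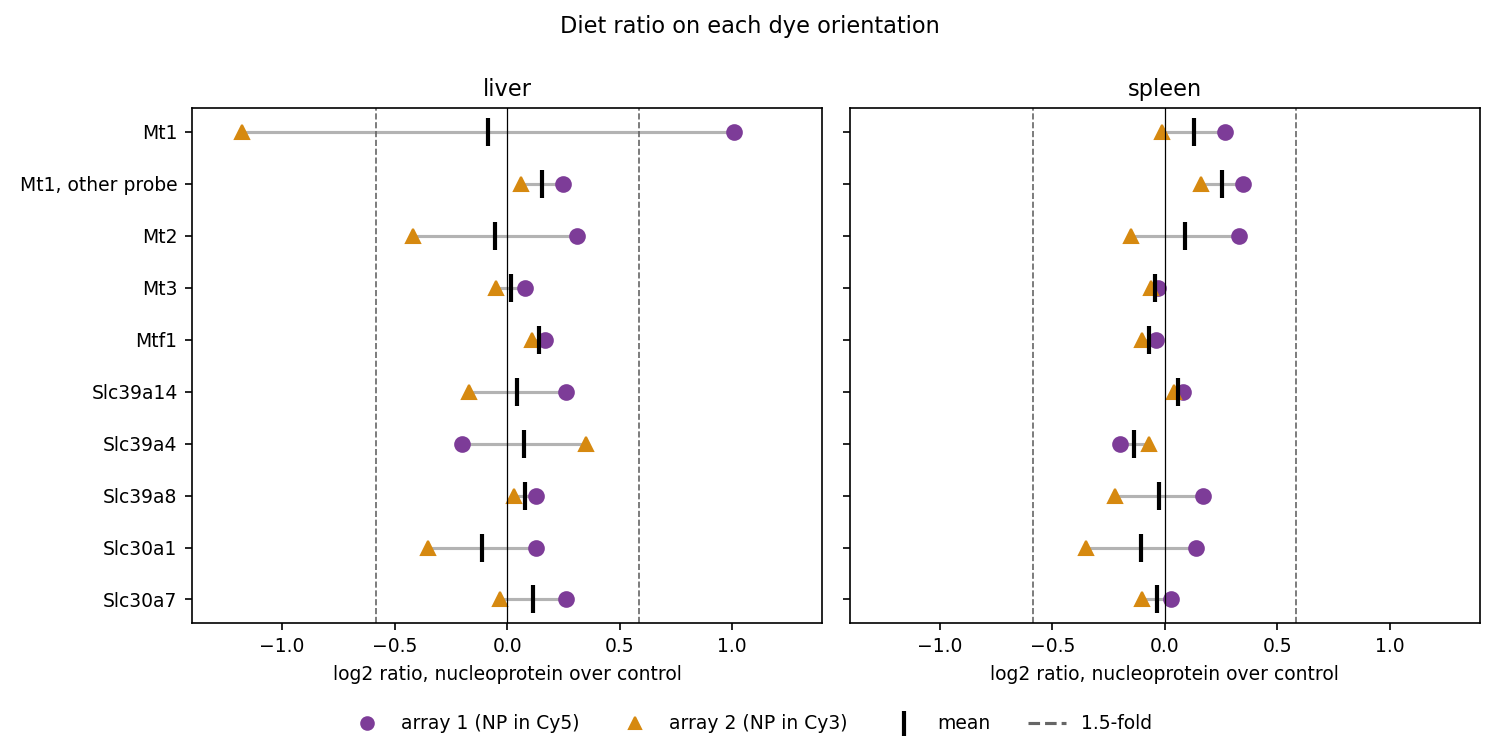
Log2 ratio of nucleoprotein over control for each member in liver and spleen. Circles are array 1 (nucleoprotein in Cy5), triangles array 2 (nucleoprotein in Cy3), black bars the mean, and dashed lines 1.5-fold. The arrays of the brightest Mt1 probe in liver lie at 1.01 and -1.18, and every other point lies within the bounds.

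Wider lists gave 0 calls as well, which for lists this short is near the share over all genes (0.323% in liver and 0.446% in spleen). Of the other ZIP transporters 9 were measurable in each organ, with median ratios of 0.03 in liver and -0.01 in spleen, and of the other ZnT transporters 5 were, with medians of 0.01 and -0.04. The 6 other MTF-1 targets had medians of 0.05 and -0.00, and the inducing signals 0.08 over 15 genes in liver and 0.07 over 14 in spleen.

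Markers of other cells did differ between the diets, and their part in the members' ratios was not tested. Of 21 measurable pancreatic acinar markers, 20 were lower in nucleoprotein livers (median -3.83) and 16 in nucleoprotein spleens (median -1.07). Their summed log2 level was 12.79 to 12.85 in nucleoprotein livers against 17.00 to 17.04 in control livers, and 13.63 to 13.78 in nucleoprotein spleens against 14.87 to 14.94 in control spleens. Amy2, an amylase, had a ratio of -4.04 ± 0.19 in liver and -1.34 ± 0.20 in spleen. Of 18 measurable hepatocyte markers, 11 were higher in nucleoprotein spleens (median 0.94), with a summed level of 12.94 to 13.02 against 11.77 to 11.78 in control spleens. Mup1, a major urinary protein made by hepatocytes, had a spleen ratio of 2.20 ± 0.01. Ttr was not well above background in spleens of either diet, and neither were Apoc3 and Cps1 in control spleens. Neutrophil markers had median ratios of 0.22 in liver and 0.19 in spleen with 0 called, near the share over all genes. Macrophage, T cell and B cell markers likewise had 0 called, with medians of 0.06, -0.01 and -0.03 in liver and -0.03, -0.10 and -0.05 in spleen. In liver 0 of 19 hepatocyte markers were called (median -0.04), with a summed level of 19.26 to 19.61 in nucleoprotein livers against 19.21 to 19.73 in control livers.

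Genes with the most similar pattern were found by the root mean square difference from Mt1 and from Slc39a14 over the 4 pool levels, after each gene's own mean was subtracted, among 13998 genes. Nearest to the brightest Mt1 probe were Metap1d at 0.020, the file's unnamed entry NAP103523-1, Pdhx, Opn5 and AW986112, the last at 0.032. Nearest to Slc39a14 were Cdhr5 at 0.028, Fuom, Csad, Abcd3 and Cidec, the last at 0.043. The 5 genes nearest to Mt1 had liver minus spleen differences of 1.56 to 1.66 and those nearest to Slc39a14 of 4.02 to 4.11, and over only 4 pools the measure followed mainly that difference.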

How the data were processed

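RNA pools of liver and spleen were hybridised to 4 two-colour Agilent arrays. The deposited scanner files hold, per the file headers, mean and background intensity per spot and the log10 ratio of red over green. The submitters' processing notes name Agilent Feature Extraction, version 9.5.3.1. The authors' deposited series table holds a ratio per spot on a linear scale, negative throughout on array 1 of each organ. Its size was red over green. Among gene spots well above background in both colours, 99.849% to 99.996% lay within 0.02 (log2) of the scanner's processed signals. Column medians were -0.92, 0.92, -0.96 and 0.96. What its sign marks is unknown, and the size served as an alternative.

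From these, limma 3.58.1 in R 4.3.3 corrected background (normexp, offset 50), normalized within arrays (loess) and scaled levels between arrays (Aquantile). Control spots and outlier spots (189 to 354 per array of 43379 gene spots) were left out. No gene spot was saturated, and 55.17% to 72.76% of spots per channel were well above background. Probes were named by accession (22944), by name or synonym (9772) or as in the file (8458). A gene was measurable for diet if well above background in at least 1 diet on both arrays. Pools have no replicates, so calls are by fold; the number of arrays limits precision. Limma over arrays as separate pools was an alternative. On simulated data it recovered 15 of 97 genes changed by 1 (log2) and 103 of 103 changed by 2 among 16406 liver genes. Among 18150 spleen genes it recovered 94 of 94 and 106 of 106. The simulation kept each gene's dye difference but gave all genes of an organ normal noise of the same SD. It held no spread between mice, so these counts do not give the recovery to expect in the real data. All members are named; of other lists, genes called with diet and up to 3 of the brightest per list and organ, and those said to be chosen afterwards. The members and lists were chosen with earlier results of these data known.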

Additional observations from a re-analysis of the deposited data

Results flagged for a closer look

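Mtf1 was picked out because both liver arrays lay above 0 and both spleen arrays below 0 in the ratio of nucleoprotein over control. The mean ratio in liver exceeded that in spleen by 0.21 on the log2 scale. The difference was not tested, and the second Mtf1 probe did not show it.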

How the results depend on the processing

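The count of members called with diet stayed at 0 in spleen under every alternative run, and in liver under every alternative except the use of a single array. With either liver array left out the count was 1, and this was Mt1, in opposite directions on the 2 arrays. Its ratio was -1.18 without array 1 and 1.01 without array 2. Of the members' diet ratios under alternatives that kept both arrays, 99 moved by no more than the SD of the arrays and 9 moved further. Median centring in place of loess gave a median over all liver genes of 0.17, against 0.02, and all 9 members were then above 0 in liver, between 0.11 for Slc30a1 and 0.45 for Slc39a4, with 0.36 for Mt1, 0.38 for Mt2 and 0.41 for Slc39a14. Over all genes the counts called higher and lower were 2 and 51 in liver and 39 and 42 in spleen; median centring gave 0 and 32 in liver and 30 and 10 in spleen, the scanner software's log ratio 28 and 106 in liver and 102 and 81 in spleen, and single liver arrays 29 and 258 without array 1 and 198 and 94 without array 2.

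The count of members brighter in liver was 5 under quantile scaling, under the scanner software's processed signal and without either array number, 4 with an offset of 10, 3 with the mean of all probes of a gene, and 2 with a 4-fold bound. Slc39a14 and Slc39a4 were called under all of these. Of the organ differences under the alternatives, 12 moved beyond their SD and 0 called ones changed sign. The diet ratios, also in limma, are already differences within an array, and the organ differences already match arrays of the same number. No paired analysis was possible because the calls come from no test to which a replicate block could be added. The representing probes were well above background throughout, and the spread between mice could not be measured.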

Other observations

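Metallothioneins also bind copper. Of 14 measurable genes of copper handling 6 were brighter in liver and 1 in spleen, against 12.5% and 16.2% of all genes. Their median difference was 0.88. With diet 0 were called in either organ, near the share over all genes (0.323% in liver and 0.446% in spleen). Steap4, a metalloreductase known to respond to inflammation, was 75.7-fold higher in liver (6.24 ± 0.27). Ccs, the copper chaperone of superoxide dismutase, was higher in liver by 3.36 ± 0.22, and Cp, which encodes ceruloplasmin, by 2.83 ± 0.26. Atp7a, a copper pump, was the 1 gene brighter in spleen, by 2.38-fold, and Ccs and Atp7a are named after their values were seen.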
